A study of Mus musculus with 8 samples.

Results

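Mitochondrial DNA encodes 13 mRNAs, and their making depends on proteins that the nucleus encodes. The level of these 13 mRNAs and of 25 nuclear genes of their expression machinery was examined in hematopoietic stem cells (HSCs) with and without MITOL, a ubiquitin ligase of the outer mitochondrial membrane encoded by Marchf5. The 38 genes were chosen by symbol, from their known place in the replication, transcription and processing of mitochondrial DNA and its RNA. Of these, 32 had a row among the 22065 named genes of the count table, made up of 7 of the 13 mitochondrial mRNAs and 25 of the 25 machinery genes. Both kinds of gene are described apart.

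Bulk RNA-seq was done on 8 libraries of 100 bone marrow HSCs each, sorted as Lineage- EPCR+ CD150+ CD48- cells from C57BL/6 mice aged 8 to 10 weeks. The paper's definition of long-term HSCs also includes c-Kit (CD117), encoded by Kit. The 4 MitolΔ/Δ libraries came from Mitol Flox/Flox;MX1-cre+ mice and the 4 control libraries from Mitol Flox/Flox;MX1-cre- mice. Both groups carried the floxed allele and received Poly:IC, which induces MX1-cre, and cells were taken 1 week after it. MX1-cre acts in many cells that respond to interferon and not in HSCs alone. Whether each library came from its own mouse is not stated in the labels, so p-values measure the spread between these libraries, which may be technical. In bulk RNA, fewer cells of a type and less RNA per cell cannot be told apart.

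The mitochondrial genome is a compact circle, transcribed from both strands into long RNAs by the polymerase POLRMT with TFAM and TFB2M. Transfer RNAs lie between most of its genes, and cutting them out with RNase P and ELAC2 frees the mRNAs, which are then given a poly(A) tail by MTPAP and stabilized by LRPPRC with SLIRP. The helicase TWNK and the polymerase POLG copy the genome itself, and quiescent HSCs are known for low mitochondrial activity.

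Counts on named genes ran from 7214935 to 12398138 a library. The listed HSC markers were in the table, and among them Hlf and Kit were lower in MitolΔ/Δ HSCs (edgeR, adjusted p = 0.00381 and 0.00705). Slamf1, which encodes CD150 of the sorting gate, had a log2 fold change of 0.56 with groups that did not overlap and did not pass the test (edgeR, adjusted p = 0.0501). Procr, which encodes EPCR of that gate, did not pass either, nor did Mecom, Fgd5, Hoxb5, Ctnnal1 and Meis1. Summed normalized counts of the 8 red-cell markers were 978 to 4846 in MitolΔ/Δ and 389.7 to 795 in control libraries, with the highest in MitolΔ/Δ replicate 3. Neutrophil markers summed to 16.9 to 36.6 in MitolΔ/Δ and 50.1 to 88.9 in control libraries, B-lineage markers to 136.5 to 150.3 and 145.5 to 204, T-cell markers to 20.1 to 36 and 35 to 54.3, and macrophage markers to 100.5 to 326 and 78.2 to 169. The part of these cells in the results was not tested. Normalized counts of Marchf5 were 232 to 308 in MitolΔ/Δ and 262 to 333 in control HSCs (log2 fold change -0.15, SE 0.13, edgeR, adjusted p = 0.498), so that its total count did not separate the groups. A count over the whole gene cannot tell deleted from remaining exons. Of 16444 genes tested, 770 were higher and 616 lower in MitolΔ/Δ HSCs, and with upper-quartile scaling the share of higher genes among those called went from 55.6% to 41.3%.

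The 6 mitochondrial mRNAs without a row were mt.Nd3, mt.Nd4l, mt.Co2, mt.Co3, mt.Atp6 and mt.Atp8, which encode subunits of complexes I, IV and V. They follow each other along the mitochondrial genome, with tRNA genes between some of them. A nuclear stretch on chromosome 1 of GRCm39, chr1:24650616-24655269 on the minus strand, aligned with positions 6390 to 11042 of mitochondrial DNA with 2 mismatches and 1 gap over 4654 bases. Of all windows of 75 bases, the length of a read, 98.9% in mt.Nd3 and 100% in each of the other 5 had an identical copy in the nuclear genome. Among genes with a row, this share was 0% in mt.Nd1, mt.Nd6 and mt.Cytb, 1.66% in mt.Nd5, 5.71% in mt.Nd2, 39.8% in mt.Co1 and 61.5% in mt.Nd4. How reads with more than 1 place in the genome were counted is not given in the sources used here, and its part in the missing rows was not tested. The lowest row of the table summed to 11 counts over the 8 libraries. No level is given for the 6 genes.

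The middle 75 bases of mt.Co3, at chrM:8961-9035, and their closest nuclear stretch, at chr1:24652624-24652698 on the minus strand, are shown because no letter differs between them. A read from one could not be told from a read of the other.
mt.Co3, mitochondrial: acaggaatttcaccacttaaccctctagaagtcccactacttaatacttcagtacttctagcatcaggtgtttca
mt.Co3, nuclear copy: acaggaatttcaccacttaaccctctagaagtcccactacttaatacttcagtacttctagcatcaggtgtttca

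The middle of mt.Nd2, at chrM:4395-4469, is shown as the contrast, from the 1 mitochondrial mRNA that passed the test below. Its closest nuclear stretch, at chr9:15232030-15232104 on the plus strand, differed at 12 of 75 bases, given in capitals. These 75 bases do not stand for the whole gene. A nuclear stretch at chr2:22477300-22480546 aligned with positions 4441 to 7699 of mitochondrial DNA, which take in the end of mt.Nd2, at 97.4% identity.
mt.Nd2, mitochondrial: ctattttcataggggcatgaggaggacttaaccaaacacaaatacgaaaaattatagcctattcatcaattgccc
mt.Nd2, closest nuclear stretch: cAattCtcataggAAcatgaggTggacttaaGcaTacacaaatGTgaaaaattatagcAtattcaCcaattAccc

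Of 7 genes listed as nuclear copies of mitochondrial DNA, 2 had a row, Gm28438 and Gm29216, and their summed normalized counts were 6.3 to 15.6 in MitolΔ/Δ and 4 to 12.2 in control libraries. Both fell below the expression filter and were not tested.

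**Figure D1:**
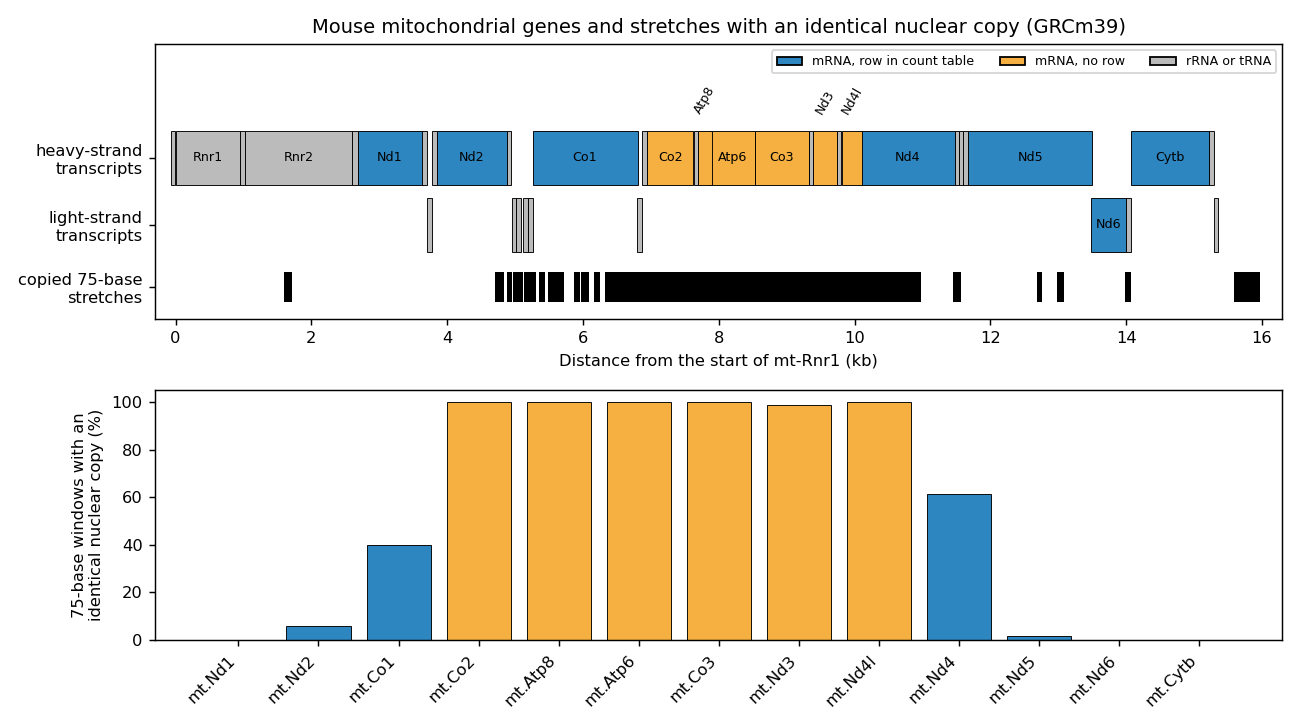
Upper panel, genes of mouse mitochondrial DNA by distance in kb from the start of mt-Rnr1, with stretches made of 75-base windows that have an identical nuclear copy in black. Lower panel, percent of such windows in each of the 13 mRNAs; the 6 genes without a row (orange) sit at 98.9% to 100% and the 7 with a row (blue) at 0% to 61.5%.

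Within a library, the 7 mRNAs differed widely in level. Per kb of gene, the order by mean normalized counts over all libraries was mt.Co1, mt.Nd1, mt.Cytb, mt.Nd5, mt.Nd6, mt.Nd4 and mt.Nd2. In control HSCs, mt.Co1, the catalytic subunit of cytochrome c oxidase, had 6167 ± 1030 normalized counts per kb (SD, n = 4) and mt.Nd2 588 ± 74.2. Of the genes between them, mt.Nd1 and mt.Cytb, at 2576 ± 531 and 2608 ± 267 per kb, and mt.Nd6 and mt.Nd4, at 1765 ± 193 and 1541 ± 248, did not differ beyond their spread. The mean of mt.Nd5, at 2227 ± 289 per kb, was below that of mt.Nd1 by less than the SD of mt.Nd1 and below that of mt.Cytb by more than either SD. Counted per 1000 windows that occur once in the genome, mt.Nd4 moved from sixth to second place, at 4230 ± 680 in control HSCs, while mt.Co1 stayed highest at 10767 ± 1798 and mt.Nd2 lowest at 671 ± 84.8. These are levels of sequenced RNA and also reflect how well each sequence is primed and mapped.

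Each of the 7 mitochondrial mRNAs had a higher fitted level in MitolΔ/Δ than in control HSCs, but only mt.Nd2 passed the test. The log2 fold changes were 0.19 to 0.63 with a median of 0.26, and the median over all genes tested was -0.02. In edgeR's quasi-likelihood fit, with p-values adjusted over all genes by the Benjamini-Hochberg method, 1 of 7 was higher and 0 were lower, where 4.68% of all genes were called higher and 3.75% lower. A positive log2 fold change without regard to the test was found in 47.7% of all genes. The 7 mRNAs are cut from shared long transcripts and counted in the same libraries, so they are not 7 independent observations.

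The gene mt.Nd2 (chrM:3914-4951) encodes a proton-pumping subunit of complex I, the first enzyme of the respiratory chain. Its normalized counts were 1125.5, 1150.3, 818 and 731 in MitolΔ/Δ replicates 1 to 4 and 591, 569, 557 and 724 in control replicates 1 to 4. The groups did not overlap, which was so for 8.17% of all genes with MitolΔ/Δ higher, although MitolΔ/Δ replicate 4 and control replicate 4 were nearly level. The log2 fold change was 0.63 (SE 0.15, 95% interval 0.30 to 0.96, edgeR, adjusted p = 0.0288, higher in 4 of 4 libraries). The call was held in 3 of 8 fits with 1 library left out, with log2 fold changes of 0.53 to 0.76 and adjusted p-values of 0.00522 to 0.0846, and was lost without MitolΔ/Δ replicate 1 or 2 or control replicate 1, 2 or 3.

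The share of mt.Nd2 among counts on the 7 mRNAs was 3.18% to 3.75% in MitolΔ/Δ and 2.57% to 2.96% in control libraries. These ranges did not overlap either, so mt.Nd2 was higher relative to the other mitochondrial mRNAs of its own library as well as relative to the nuclear genes. Because mt.Nd2 had the largest log2 fold change of the 7, its share draws on the same counts and is no separate support. No test was made on these shares.

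The most abundant of the 7 mRNAs with a row, mt.Co1 (chrM:5328-6872), had 14120, 11761, 10332 and 10165 normalized counts in MitolΔ/Δ replicates 1 to 4 and 7824, 9298, 9319 and 11673 in control replicates 1 to 4. MitolΔ/Δ replicates 1 and 2 lay above all controls, and control replicate 4 lay above MitolΔ/Δ replicates 3 and 4. Its log2 fold change was 0.26 (SE 0.13, edgeR, adjusted p = 0.222). It took 38.3% to 45.5% of counts on the 7 mRNAs in MitolΔ/Δ and 39.2% to 43% in control libraries.

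The gene mt.Nd6 (chrM:13552-14070), also a complex I subunit, is the 1 mitochondrial mRNA that is read from the other strand. It had 1298.5, 1192, 859.6 and 887 normalized counts in MitolΔ/Δ replicates 1 to 4 and 957, 884, 795 and 1028 in control replicates 1 to 4. The highest 2 libraries were MitolΔ/Δ replicates 1 and 2, and the other libraries of both groups overlapped. The log2 fold change was 0.19 (SE 0.14, edgeR, adjusted p = 0.417), the smallest of the 7. Its share of the counts on the 7 mRNAs was 3.58% to 3.97% in MitolΔ/Δ and 3.67% to 4.79% in control libraries. The library kit does not mark strand, so reads of mt.Nd6 and of RNA opposite to it cannot be told apart, and 14 bases of the gene lie over the end of mt.Nd5.

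The remaining complex I genes on the main coding strand were mt.Nd1, mt.Nd4 and mt.Nd5, all membrane subunits. For mt.Nd1 (chrM:2751-3707), the range was 2281 to 4857 normalized counts in MitolΔ/Δ and 2071 to 3208 in control HSCs (log2 fold change 0.47, edgeR, adjusted p = 0.183). For mt.Nd4 (chrM:10167-11544), it was 2102 to 3195 against 1850.3 to 2607 (log2 fold change 0.30, adjusted p = 0.193), and for mt.Nd5 (chrM:11742-13565) 3397 to 6477 against 3566 to 4794 (log2 fold change 0.22, adjusted p = 0.489). For mt.Cytb (chrM:14145-15288), the single complex III subunit of mitochondrial DNA, it was 2766 to 4345 against 2702.5 to 3415 (log2 fold change 0.25, adjusted p = 0.245). In each of these 4 genes the groups overlapped.

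**Figure D2:**
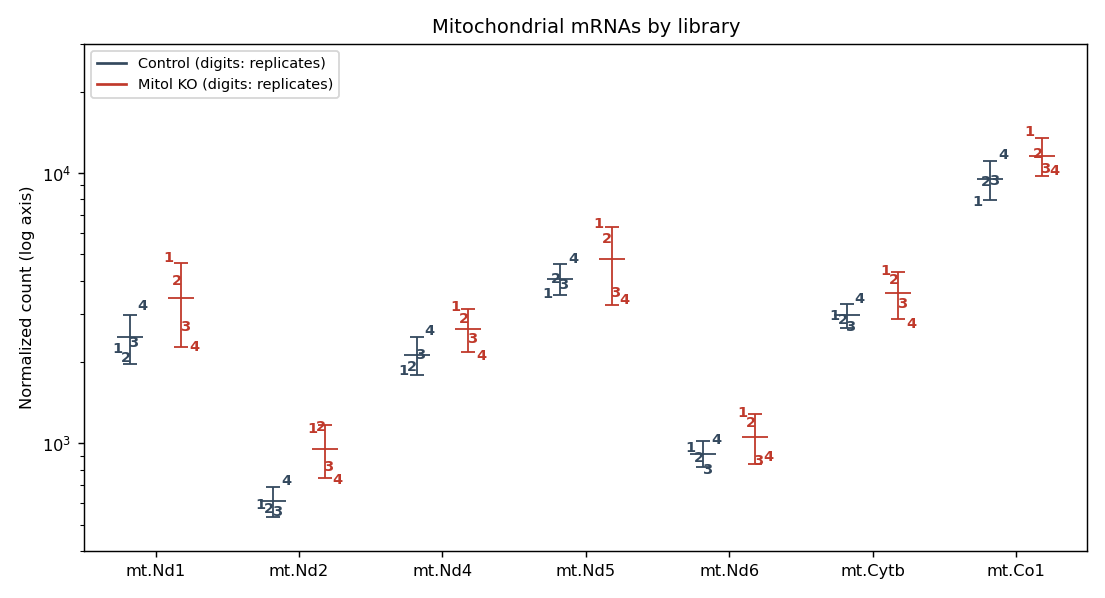
Normalized counts on a log axis of the 7 mitochondrial mRNAs, with control libraries in grey and MitolΔ/Δ (Mitol KO) libraries in red; digits are replicates, the wide tick is the mean and the bars are ± 1 SD (n = 4). Red 1 and 2 lie above all grey digits for 7 of 7 genes, and red 3 and 4 do so for 1 of 7, mt.Nd2.

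The spread ran by library rather than by gene. Relative to the mean of the controls on the log2 scale, the median over the 7 mRNAs was 0.60, 0.45, 0.14 and -0.04 in MitolΔ/Δ replicates 1 to 4 and -0.12, -0.05, -0.07 and 0.25 in control replicates 1 to 4. MitolΔ/Δ replicates 1 and 2 were above all controls for 7 of 7 genes, and replicates 3 and 4 for 1 of 7. Control replicate 4 was the highest control throughout. Without MitolΔ/Δ replicate 4, 4 of the 7 were called, mt.Nd1, mt.Nd2, mt.Nd4 and mt.Cytb.

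As a share of counts on named genes, the 7 mRNAs made up 0.365%, 0.316%, 0.251% and 0.229% in MitolΔ/Δ replicates 1 to 4 and 0.21%, 0.236%, 0.232% and 0.312% in control replicates 1 to 4. The means were 0.290% ± 0.0619 and 0.247% ± 0.0445 (SD, n = 4), and the difference of 0.0427 percentage points was smaller than either SD. At this depth counting error was small, with exact 95% binomial intervals of 0.362% to 0.368% in MitolΔ/Δ replicate 1 and 0.207% to 0.213% in control replicate 1. These intervals cover counting error only, since without molecular identifiers several reads may stem from the same molecule.

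Genes of the cell cycle ran in a similar order among the MitolΔ/Δ libraries. Summed normalized counts of 14 cycling genes were 37030.1, 38452, 25522 and 18310 in MitolΔ/Δ replicates 1 to 4 and 18458, 15325, 17353 and 12202 in control replicates 1 to 4. The order did not carry over to the controls, where replicate 4 had the most mitochondrial mRNA and the least cycling RNA. The red-cell markers were highest in MitolΔ/Δ replicate 3, which was not high in mitochondrial mRNA. The part of the cycling genes in the mitochondrial mRNA levels was not tested.

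The ribosomal RNAs of mitochondria, which start the heavy-strand transcript, were more abundant than the mRNAs, at a mean of 175551 (mt.Rnr1) and 63712 (mt.Rnr2) normalized counts per kb. The first, of the small subunit, differed by 0.27 on the log2 scale (edgeR, adjusted p = 0.155), and the other, of the large subunit, by 0.02 (adjusted p = 0.867). Both together took 2.71% to 3.44% of counts in MitolΔ/Δ and 2.49% to 2.98% in control libraries. For each 100 counts on these rRNAs there were 9.76 ± 1.37 on the 7 mRNAs in MitolΔ/Δ and 9.04 ± 0.977 in control HSCs (SD, n = 4), a difference within the spread. How well rRNA and mRNA are each primed also enters these levels and this ratio. Of 24 mitochondrial rRNA and tRNA genes, 6 had a row, 3 were tested and 0 were called by edgeR, with 2 at an unadjusted p under 0.05 and 1 called by DESeq2. The third tested gene was mt.Tp, the proline tRNA, at 88.4, 79.0, 55.8 and 73.0 normalized counts in MitolΔ/Δ replicates 1 to 4 and 50.1, 45.8, 42.4 and 44.9 in control replicates 1 to 4 (log2 fold change 0.68, SE 0.22, edgeR, adjusted p = 0.0778). Its groups did not overlap. The gene mt.Tp did not pass the test in edgeR and was the gene called by DESeq2 (adjusted p = 0.0464). At 67 bases it is shorter than a read, so a full read over it also takes in bases outside it. Because the library kit does not mark strand, reads of mt.Tp and of RNA opposite to it cannot be told apart. Its counts may therefore not be those of the tRNA alone, and their source was not tested.

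No gene of the nuclear machinery was called. Of the 25 genes, 24 were tested and 0 passed the threshold in edgeR, where 8.43% of all genes were called in either direction. DESeq2 called 0 too, 0 had an unadjusted p under 0.05 in edgeR, and the lowest adjusted p was 0.226. In 0 of the 24 were the groups separate, which was so for 15.4% of all genes. The median log2 fold change was 0.06 (range -0.17 to 0.51), with 19 positive and 5 negative. With upper-quartile scaling, 12 of 24 were positive. The 95% interval of the log2 fold change lay within 1 of zero for 23 of the 24 and within 0.5 for 17, so changes above 2-fold were outside the interval for all but Fastkd5. Per kb, the tested machinery genes ran from 11.1 (Fastkd5) to 415 (Tbrg4) normalized counts, and the 25 genes together took 0.0878% to 0.0991% of counts in MitolΔ/Δ and 0.0909% to 0.0964% in control libraries.

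Polrmt (chr10:79571957-79582420), the RNA polymerase of mitochondria, had 909, 861, 749.7 and 784 normalized counts in MitolΔ/Δ replicates 1 to 4 and 727, 717, 786 and 619 in control replicates 1 to 4. MitolΔ/Δ replicates 1 and 2 were the highest, and control replicate 3 lay above MitolΔ/Δ replicates 3 and 4. The log2 fold change was 0.20 (SE 0.10, 95% interval -0.03 to 0.42, edgeR, adjusted p = 0.244). Among the other transcription factors of mitochondria, Tfb1m, an rRNA methyltransferase related to the initiation factor, was at a log2 fold change of 0.02 (adjusted p = 0.969), Tfb2m, the initiation factor that opens the promoter, at -0.17 (adjusted p = 0.666), and Tefm, the elongation factor, at -0.16 (adjusted p = 0.671). For Mterf3 and Mterf4, of a family that binds mitochondrial nucleic acids, the values were -0.15 (adjusted p = 0.447) and 0.18 (adjusted p = 0.632). In Tfb2m, 60.9% of the 75-base windows had another copy in the genome, and 45.3% of the exonic bases of Mterf4 and 34.7% of those of Tfb1m lay over exons of another annotated gene, so these counts are less certain.

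Twnk (chr19:44994102-45001204), the helicase of the mitochondrial replication fork, had 475, 504, 511 and 461 normalized counts in MitolΔ/Δ replicates 1 to 4 and 538, 459.7, 485 and 536 in control replicates 1 to 4. No library of either group stood out, and the log2 fold change was -0.07 (SE 0.10, 95% interval -0.29 to 0.15, edgeR, adjusted p = 0.717). The other replication genes were also near zero on the log2 scale and not called. They were Polg, the catalytic subunit of the DNA polymerase, at 0.04 (adjusted p = 0.824), its accessory subunit Polg2 at 0.05 (adjusted p = 0.865), the single-strand binding protein Ssbp1 at -0.12 (adjusted p = 0.577) and the exonuclease Mgme1 at 0.04 (adjusted p = 0.911). The 95% interval lay within 0.5 of zero for 5 of these 5 genes.

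Lrpprc (chr17:85012670-85098279), which with SLIRP holds mitochondrial mRNAs stable, had 1128, 1174, 1015 and 809 normalized counts in MitolΔ/Δ replicates 1 to 4 and 960.1, 784, 912 and 783 in control replicates 1 to 4. 3 of the 4 MitolΔ/Δ libraries lay above all controls and replicate 4 lay among them. The log2 fold change was 0.25 (SE 0.12, 95% interval -0.02 to 0.51, edgeR, adjusted p = 0.226). It was called in 1 of 8 fits with a library left out, the one without MitolΔ/Δ replicate 4 (0.36, adjusted p = 0.0372). Its partner Slirp had 0 to 4 normalized counts in each library and was not tested. Over 57.3% of its exonic bases another annotated gene also has an exon.

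The FASTK family, whose proteins bind mitochondrial RNA and act on its processing and stability, had log2 fold changes of 0.05 to 0.51, none of them called. The values were 0.05 for Fastk (edgeR, adjusted p = 0.817), 0.07 for Fastkd1 (adjusted p = 0.831), 0.16 for Fastkd2 (adjusted p = 0.563), 0.27 for Fastkd3 (adjusted p = 0.387) and 0.18 for Tbrg4, also called Fastkd4 (adjusted p = 0.331). Fastkd5, which acts at mRNA ends that no tRNA marks, was the lowest tested member at 33.0 to 57.9 normalized counts in MitolΔ/Δ and 25.1 to 54.6 in control HSCs, and its log2 fold change of 0.51 had an interval of -0.19 to 1.20 (adjusted p = 0.338). Another gene's exons cover 72.8% of the exonic bases of Fastkd5 and 46.6% of those of Fastk.

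The enzymes that cut, extend and degrade the transcripts were near the controls as well. Of those that free the tRNAs, Elac2, which cuts their 3′ ends, was at a log2 fold change of 0.12 (edgeR, adjusted p = 0.573), and the RNase P subunits Trmt10c and Hsd17b10 had 0.01 (adjusted p = 0.971) and 0.17 (adjusted p = 0.506). The poly(A) polymerase Mtpap had 0.02 (adjusted p = 0.936). The exonuclease Pnpt1 and the helicase Supv3l1, which together form the degradosome, had 0.16 (adjusted p = 0.511) and 0.15 (adjusted p = 0.564). In each of these 6 genes the groups overlapped and the 95% interval lay within 0.5 of zero.

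**Figure D3:**
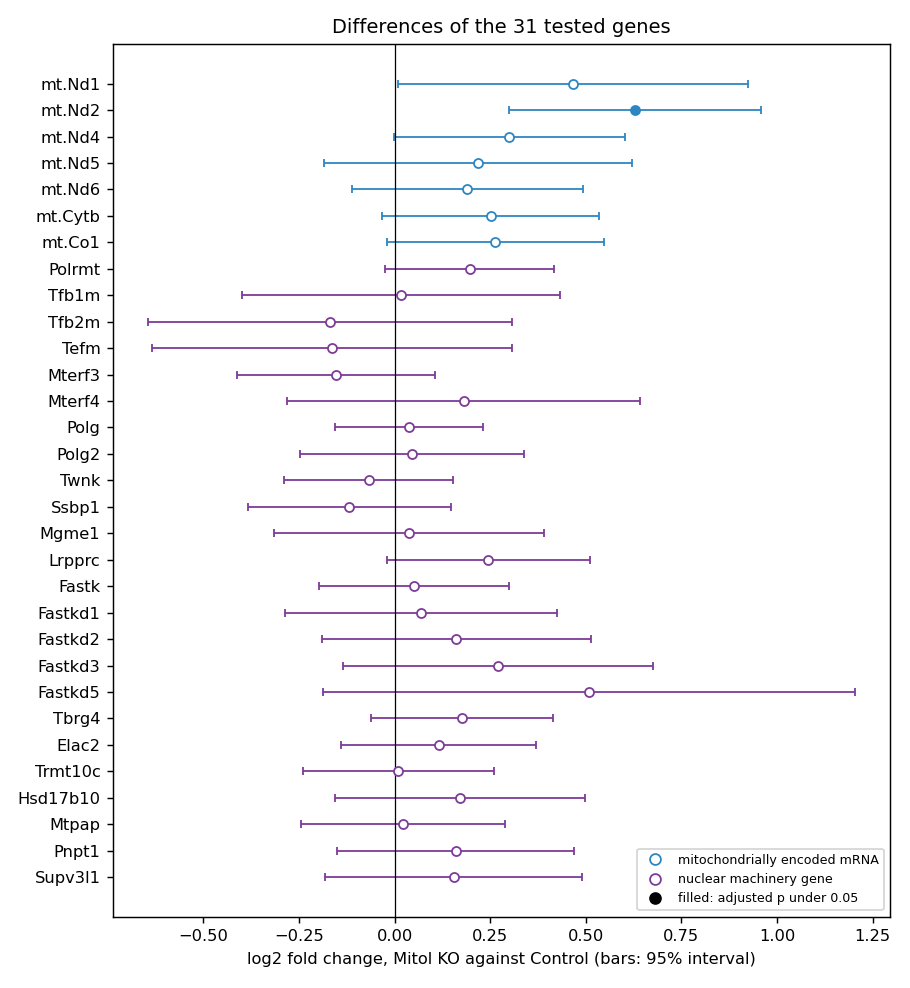
Log2 fold changes of MitolΔ/Δ (Mitol KO) against control HSCs for the 7 mitochondrial mRNAs (blue) and 24 tested machinery genes (purple), with 95% intervals from the edgeR fit; a filled point marks an adjusted p under 0.05. The 7 blue points lie at 0.19 to 0.63 with mt.Nd2 the 1 filled point, and the purple points at -0.17 to 0.51 with none filled.

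By library, the median of the machinery moved less than that of the mRNAs. On the log2 scale relative to the mean of the controls, its median was 0.17, 0.13, 0.07 and -0.04 in MitolΔ/Δ replicates 1 to 4 and 0.08, -0.04, 0.05 and -0.11 in control replicates 1 to 4. Control replicate 4, the control with the most mitochondrial mRNA, had the lowest median for the machinery. A median over many genes can hide single ones that moved in opposite directions. In MitolΔ/Δ replicates 1 and 2, Fastkd3 was at 0.56 and 0.65 and Tfb2m at -0.21 and -0.62.

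**Figure D4:**
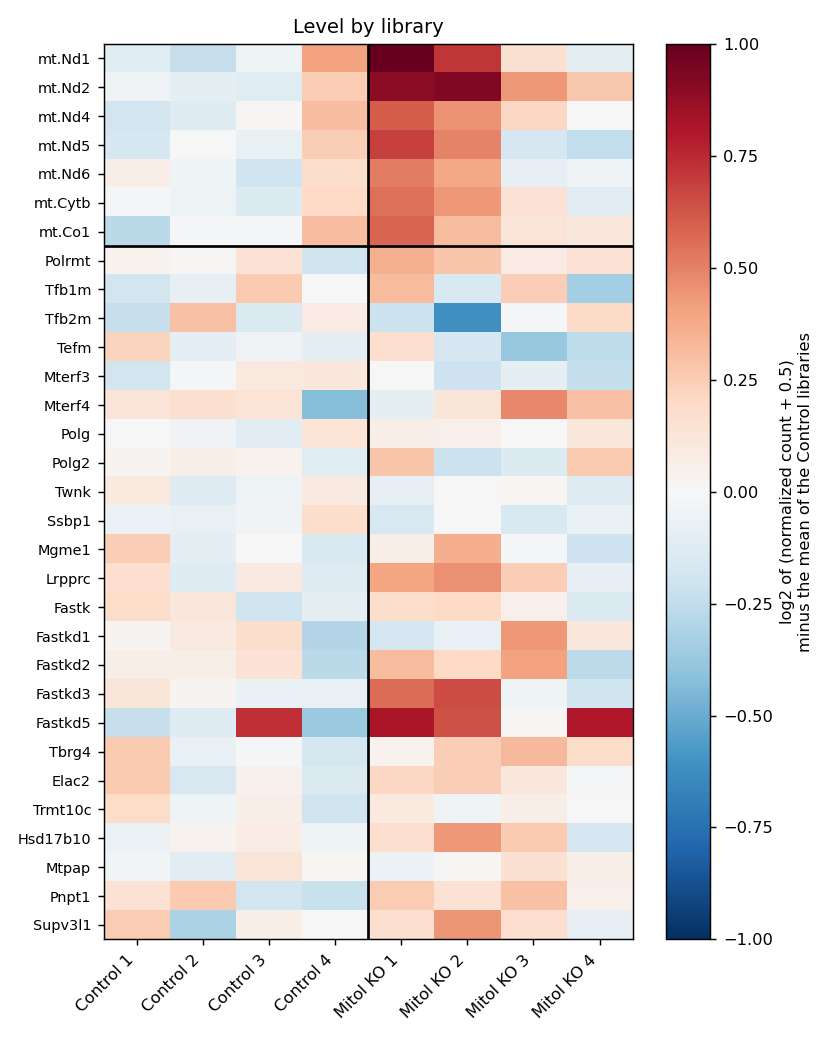
Level of the 31 tested genes in each library, as log2 of the normalized count plus 0.5 minus the mean of the control libraries, in red where higher and blue where lower; Mitol KO marks MitolΔ/Δ libraries. The upper 7 rows, the mitochondrial mRNAs, are red in Mitol KO 1 and 2 and in Control 4, while the machinery rows below show no such block.

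Other genes of the same pathway were counted from lists. Of 22 further genes of mitochondrial DNA maintenance, 20 were tested, with 1 higher and 2 lower, together 15% of those tested beside 8.43% of all genes. Tfam, which packages mitochondrial DNA and activates its promoters, had 212.7 to 376 normalized counts in MitolΔ/Δ and 270.3 to 297 in control HSCs (log2 fold change 0.01, SE 0.16, edgeR, adjusted p = 0.979). Dna2, a nuclease and helicase of nuclear and mitochondrial DNA, had 566 to 1121 normalized counts in MitolΔ/Δ and 312.5 to 531.5 in control HSCs (log2 fold change 0.97, SE 0.22, adjusted p = 0.022, higher in 4 of 4 libraries). Both lower genes belong to the nucleotide supply of mitochondria, and the other tested genes of that supply in the list were not called. Tk2, the mitochondrial thymidine kinase, had 280.2 to 325 normalized counts against 396 to 557 in controls (log2 fold change -0.62, SE 0.13, adjusted p = 0.0185, lower in 4 of 4), and Slc25a36, a pyrimidine nucleotide carrier, 1871.5 to 2191.5 against 2259 to 2849 (log2 fold change -0.35, SE 0.10, adjusted p = 0.046, lower in 4 of 4).

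Of 39 further genes of mitochondrial RNA processing and modification, 37 were tested, with 3 higher and 0 lower, a share of 8.11% beside 8.43% of all genes. Pde12, which removes poly(A) from mitochondrial RNA, had 579.8 to 788 normalized counts in MitolΔ/Δ and 351 to 464 in control HSCs (log2 fold change 0.77, SE 0.12, edgeR, adjusted p = 0.00634). Rexo2, an exonuclease of very short RNAs, had 688 to 1017.5 against 420.3 to 669 (log2 fold change 0.57, SE 0.16, adjusted p = 0.0431), and Pus1, a pseudouridine synthase of tRNAs, 461 to 537 against 316 to 439 (log2 fold change 0.49, SE 0.13, adjusted p = 0.0371). In these 3 genes 4 of 4 MitolΔ/Δ libraries lay above all controls. The median log2 fold change of the list was 0.02.

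The mitochondrial mRNAs encode core subunits of complexes whose other subunits are nuclear. Of 76 tested nuclear genes of complexes I to V, 26 were higher and 0 lower (34.2%, with 4.68% of all genes called higher), with a median log2 fold change of 0.41. By complex, 8 of 37 were higher in complex I, 2 of 4 in complex II, which has no mitochondrially encoded subunit, 5 of 9 in complex III, 4 of 11 in complex IV and 7 of 15 in complex V. The 7 of complex V include Atpif1, which encodes an inhibitor of ATP synthase and not a subunit. With 1 library left out, the count called in either direction was 3, without control replicate 2, to 38, without MitolΔ/Δ replicate 4. Of these 38, 37 were higher. On the mitochondrial side, 1 of 5 tested genes of complex I, 0 of 1 of complex III and 0 of 1 of complex IV were called, and the 2 of complex V had no row. The difference between nuclear and mitochondrial subunits was not tested.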

How the data were processed

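RNA was taken from sorted HSCs, reverse transcribed with not-so-random primers and made into libraries with the Nextera XT kit, which does not mark strand, and single-end reads of 75 bases were sequenced. STAR, SAMtools, Subread and the build mm39 are named in the submitters' processing notes. The annotation, strand and multiple-mapping settings are not given in the sources used here. The authors deposited raw counts of reads per gene, without normalization. Of 23094 rows, 1029 have no symbol (0.335% to 0.467% of counts) and were left out.

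Counts were tested in edgeR's quasi-likelihood framework (version 4.0.16) in R (version 4.3.3), with TMM factors, the default filter, group as the sole term and Benjamini-Hochberg adjustment over 16444 genes at 0.05. Normalized counts are counts divided by size factors of DESeq2 (version 1.42.0). The 38 members and all lists were chosen with earlier results of these data known, and no list was tested as a set. Members past the threshold or with separate groups, mt.Nd6, Polrmt, Twnk, Lrpprc and the mitochondrial mRNAs with most and fewest counts per kb were given in full. Of other lists, up to 6 called genes and Tfam could be named. The complexes of nuclear subunits are given as counts.

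Positions, exon overlaps and sequences are from GRCm39 with GENCODE vM39, and nuclear copies were aligned with BLAST+ (version 2.17.0). The fit was tested on simulated counts. Library totals were 7214935 to 12398138, and 100 cells and 4 libraries a group limit precision. Alternatives were other scalings, no filter, DESeq2, limma-voom (limma version 3.58.1), a replicate block and each library left out. The counts of nuclear subunits under these alternatives were added after the data had been seen. The result of 1 HSC marker is not reported here.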

Additional observations from a re-analysis of the deposited data

Results flagged for a closer look

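Of 70 groups of 4 libraries checked for a library far from the other 3, 5 stood out, and chance flags about 1 in 20 groups. In control replicate 4, Mterf4 had 61.1 normalized counts against 89.7 to 91.5 in the other controls, Polg2 had 345.7 against 384 to 391, and Ssbp1 had 294.6 against 248 to 254. In control replicate 3, Fastkd5 had 54.6 normalized counts against 25.1 to 29.8 in the other controls. In MitolΔ/Δ replicate 4, the machinery genes together took 0.0878% of counts against 0.0973% to 0.0991% in the other MitolΔ/Δ libraries.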

How the results depend on the processing

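Over 7 other scalings, filters and tools, the count of mitochondrial mRNAs called stayed at 1 and that of machinery genes at 0, and the 7 mRNAs had positive log2 fold changes under each of these and with each library left out. The median log2 fold change of the mRNAs was 0.20 to 0.29 over these alternatives and 0.16 to 0.38 with 1 library left out, and that of the machinery was -0.0014 (upper quartile) to 0.0824 and 0.04 to 0.14. The adjusted p of mt.Nd2 was 0.00238 to 0.0398 over these alternatives. DESeq2 called 2315 genes in all, where edgeR called 1386. With 1 library left out, the count of all genes called was 359 (without control replicate 2) to 2501 (without MitolΔ/Δ replicate 4), that of mitochondrial mRNAs 0 to 4, that of machinery genes 0 to 1, and the difference in the share of mitochondrial mRNA 0.0178 to 0.0642 percentage points. Apart from the fit without control replicate 1, each of these fits moved the count of all genes by over 1.5 times. The listed nuclear genes of the respiratory complexes and ATP synthase had 19 to 39 called over the other alternatives.

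Whether the replicate numbers pair the samples is not stated in the labels. Same-numbered libraries had correlations of deviations of 0.0802, -0.0695, 0.0526 and 0.0671. With 4 libraries a group, these values cannot decide whether the samples were paired. With the replicate block, 1652 genes were called, 1 of them a mitochondrial mRNA and 0 of them machinery genes, and 2 of the 4 MitolΔ/Δ libraries correlated best with the control of their own number.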
